A study of Mus musculus with 6 samples.

Results

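Imprinted genes are read from 1 parental copy, and 32 of them were followed here in the lymphatic endothelium of the meninges, the membranes that wrap the brain, taken from male mice. Lymphatic endothelium lines the vessels that carry fluid and cells out of a tissue. The 32 genes, in 15 clusters or lone loci, were chosen from known imprinted genes with earlier results of these same counts in view, so their difference between ages is given as a description. The old group held 3 samples from mice aged 20 to 24 months and the young group 3 samples from mice aged 2 to 3 months. All mice were wild type C57BL/6J (C57BL/6 in the series' design), carried no altered allele and received no treatment. Cells lacking CD45, a leukocyte surface protein, and bearing CD31 and podoplanin, markers of lymphatic endothelium, were collected by flow cytometry. The total RNA was amplified linearly before sequencing. Nothing states whether a sample was 1 animal or a pool, so the spread between samples may be technical.

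Of the 32 genes, 27 had a row among the 22964 genes of the table, and 24 of these passed the filter on low counts that left 15394 genes. Usp29, Magel2, Snrpn, Kcnq1ot1 and Phlda2 were not analysed here. Dlk1, Ascl2 and Asb4 had rows but stayed under the filter. The 27 lie on 9 chromosomes. By the copy known from mouse work to be expressed, 13 of the 32 are maternal and 19 are paternal. Gnas is counted as maternal, although its main product is read from both copies in most tissues.

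Imprinting is set in the germ line, where DNA methylation is laid down at control regions in eggs or in sperm, and it is kept in body cells through each division. Most imprinted genes lie in clusters in which a long noncoding RNA or a methylation-sensitive boundary switches the neighbouring genes on 1 copy. Many act on growth: paternally expressed Igf2 drives fetal growth, and maternally expressed Igf2r, H19, Grb10 and Cdkn1c restrain it. Many are turned down after birth. The leptomeninges and the choroid plexus are known as adult sites of Igf2 transcription in mice, and there both copies are read. These libraries measured total transcript levels and not the parental copy, so the copy named for each gene is background. The sources used here do not state strandedness, so transcripts that overlap on opposite strands cannot be told apart.

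The 4 windows shown here are annotated starts of 2 pairs of neighbours whose transcripts were lower in old samples, Meg3 with Rian and Peg3 with Zim1. Each is 300 bases, 5′ to 3′, from RefSeq on build GRCm38.p6, with CpG pairs, the sites of DNA methylation, in capitals.
Meg3, chr12:109540746-109541045, plus strand: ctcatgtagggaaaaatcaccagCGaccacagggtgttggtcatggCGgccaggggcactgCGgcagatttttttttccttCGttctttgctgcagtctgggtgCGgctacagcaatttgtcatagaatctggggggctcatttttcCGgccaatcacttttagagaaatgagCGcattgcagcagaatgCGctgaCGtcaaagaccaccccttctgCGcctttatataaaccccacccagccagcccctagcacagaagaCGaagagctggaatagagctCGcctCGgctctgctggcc
Rian, chr12:109603695-109603994, plus strand: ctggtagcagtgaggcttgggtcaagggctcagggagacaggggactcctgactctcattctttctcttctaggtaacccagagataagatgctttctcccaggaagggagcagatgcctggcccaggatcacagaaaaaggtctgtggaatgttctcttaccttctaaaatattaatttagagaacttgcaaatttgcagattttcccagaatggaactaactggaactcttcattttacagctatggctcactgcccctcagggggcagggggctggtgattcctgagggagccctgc
Peg3, chr7:6730370-6730669, minus strand: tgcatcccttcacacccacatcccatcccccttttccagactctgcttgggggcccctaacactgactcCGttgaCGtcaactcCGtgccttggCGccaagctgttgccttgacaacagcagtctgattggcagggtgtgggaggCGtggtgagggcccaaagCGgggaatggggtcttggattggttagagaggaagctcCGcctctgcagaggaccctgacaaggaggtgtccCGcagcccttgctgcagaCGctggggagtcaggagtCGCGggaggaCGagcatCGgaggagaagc
Zim1, chr7:6696383-6696682, minus strand: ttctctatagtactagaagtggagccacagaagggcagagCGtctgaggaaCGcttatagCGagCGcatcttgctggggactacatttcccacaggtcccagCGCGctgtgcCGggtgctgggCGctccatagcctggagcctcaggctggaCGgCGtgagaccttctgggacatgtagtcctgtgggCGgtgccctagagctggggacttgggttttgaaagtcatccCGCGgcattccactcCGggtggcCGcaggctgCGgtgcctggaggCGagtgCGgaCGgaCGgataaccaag
The Meg3 and Peg3 windows hold 13 CpG each and the Zim1 window holds 20, while the Rian window holds 0. Meg3 has another start window, 109545148 to 109545447, with 1 CpG, and its window with more CpG is the one shown. Of the 34 start windows matched to 21 of the 27 genes with a row, 1 held no CpG, against 5.43% of all 32851 windows. The median was 11.5 CpG over the 34 windows and 7 over all windows. The letters TGCCGC, the hexamer bound by the imprint-keeping factor ZFP57 when methylated, were searched on both strands. They stood in 8 of the 34 windows (23.5%), including the Meg3 and Zim1 windows shown, and in 11.6% of all windows. The 8 include a pair of Mest windows that start at 30737800 and 30737803 and so overlap. The hexamer itself holds a CpG, and the shares were not matched for the higher median CpG of the 34 windows. A motif of the factor YY1, searched in the same way, stood in 1 of the 34 windows (2.94%) and in 6.05% of all windows. A match to either motif is letters in a window and was not tested as a site.

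Small RNAs are cut from several of these transcripts, and 2 of the highest hosts are shown because their own levels are described next. The mature sequences are from RefSeq on GRCm38.p6, with the seed (bases 2 to 8) in capitals. The Mir675 hairpin lies in an exon of H19, and the Mir483 hairpin lies in an intron of Igf2.
mmu-miR-675-5p, chr7:142577112-142577133, minus strand: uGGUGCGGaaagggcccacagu
mmu-miR-675-3p, chr7:142577078-142577099, minus strand: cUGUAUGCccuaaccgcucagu
mmu-miR-483-5p, chr7:142654968-142654989, minus strand: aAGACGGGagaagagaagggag
mmu-miR-483-3p, chr7:142654932-142654952, minus strand: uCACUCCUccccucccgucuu
The 4 seeds are all different. Further along chromosome 12, Rian holds 3 hairpins in introns, and Mirg holds 4 in exons and 10 in introns. No mature small RNA was measured here, so host levels say nothing of their products.

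The sorted samples carried lymphatic transcripts at high level. Prox1, the transcription factor of lymphatic fate, ran from 932 to 1409.6 CPM in old samples and from 877 to 945 CPM in young samples, where CPM is the estimated count scaled to a common library size with TMM factors. Each sample held 14285794 to 21043945 estimated counts in all. Ptprc, which encodes the CD45 that the sort selected against, was at 30.7 to 62.9 CPM in old samples and 0.993 to 72.7 CPM in young samples. A list of 17 fibroblast genes summed to 3646, 3824 and 4083 CPM in old samples 1, 2 and 3, and to 9713, 7228 and 6461 CPM in young samples 1, 2 and 3. Every old sum was below every young sum, and 15 of the 16 fibroblast genes tested had a negative log2 fold change, with a median of -1.17. The 15 lymphatic genes summed to 17813 to 22533 CPM in old samples and 11723 to 14107 CPM in young samples, with no overlap. The 15 macrophage and microglia genes summed to 847 to 2302 CPM in old samples and 852 to 4737 CPM in young samples, which overlap, and 14 of the 15 had a negative log2 fold change, with a median of -1.55. Blood endothelial genes summed to 1419 to 2000.4 CPM in old samples and 746 to 999 CPM in young samples, and pericyte and smooth muscle genes to 1235 to 2638 CPM in old samples and 787 to 1186 CPM in young samples. Neither of these sums overlapped between the ages. Arachnoid barrier and meningeal genes summed to 565, 2352 and 1375 CPM in old samples and 608 to 842 CPM in young samples. Choroid plexus and epithelial genes summed to 678, 135 and 347 CPM in old samples and 39.3, 327 and 199 CPM in young samples. Both of these lists overlapped between the ages. Fewer genes had a count in each old sample (17074 to 17995) than in each young one (18086 to 18949). The share of mitochondrial rRNA was 20.17%, 21.89% and 16.04% in old samples and 15.65% to 16.52% in young samples. The neuronal genes Rbfox3, Syt1 and Stmn2 were at or under 3.37 CPM in every old sample and at or under 9.56 CPM in every young sample. In bulk samples like these, fewer cells of a type and less RNA per cell cannot be told apart.

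The imprinted genes were on balance lower in old samples. Of the 24 tested, 20 (83.3%) had a negative log2 fold change of old over young, against 49% of all genes, and the median was -0.58 against 0.02. The 10 genes of the maternal copy had 9 negative values and a median of -0.96. The 14 genes of the paternal copy had 11 negative values and a median of -0.48. The 4 positive ones were Mirg, Nnat, Airn and Impact, and Impact turned negative with library size as the only scaling. In each old sample the 27 genes together took 0.28%, 0.312% and 0.35% of all counts, and in young samples 0.653%, 0.534% and 0.435%. The shares did not overlap between the ages. Igf2, H19 and Gnas made up 73.6% to 77.8% of the summed level in every sample, so the total follows these 3 genes.

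No single imprinted gene passed the test over all genes. By edgeR's quasi-likelihood test with Benjamini-Hochberg adjustment at 0.05, 0 of the 24 were called, and the share called among all 15394 genes was 0%. At an unadjusted p under 0.05, 7 of the 24 were counted as lower in old samples (H19, Igf2, Igf2r, Meg3, Peg3, Rian and Zim1) and 0 as higher, where 2.7% of all genes were counted as lower and 2.86% as higher. DESeq2 called 2 of the 24, Rian and Zim1, both lower, where it called 0.416% of all genes as lower. Limma-voom called 0 of the 24 and 0.0195% of all genes, and counted 7 of the 24 and 6.39% of all genes at an unadjusted p under 0.05. Its 7 include Gnas and leave out H19. For 7 genes every old sample was below every young sample: Igf2, Igf2r, Meg3, Rian, Zim1, Slc22a18 and Grb10. Over all genes that held for 6.44%, and the opposite order held for 5.56% of all genes and for 0 of the 24. Since the genes were chosen with this contrast known, nothing is read from these counts.

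**Figure D1:**
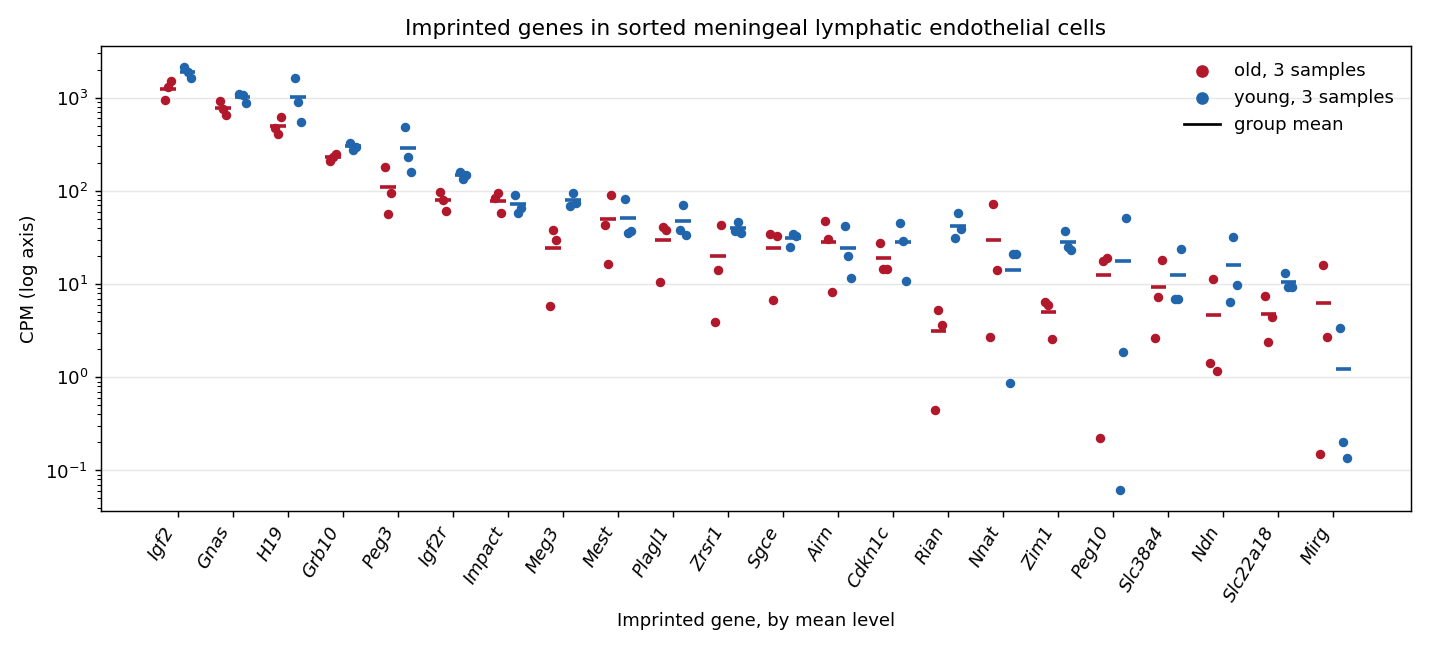
Level of the 22 imprinted genes with a mean of at least 5 CPM in either group, as CPM on a log axis, ordered by mean level, with each point a sample and each bar a group mean. Old samples are left and young samples right of each gene; Igf2, Grb10 and Rian show groups that do not overlap, while Nnat, Peg10 and Mirg spread widely within each group.

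**Figure D2:**
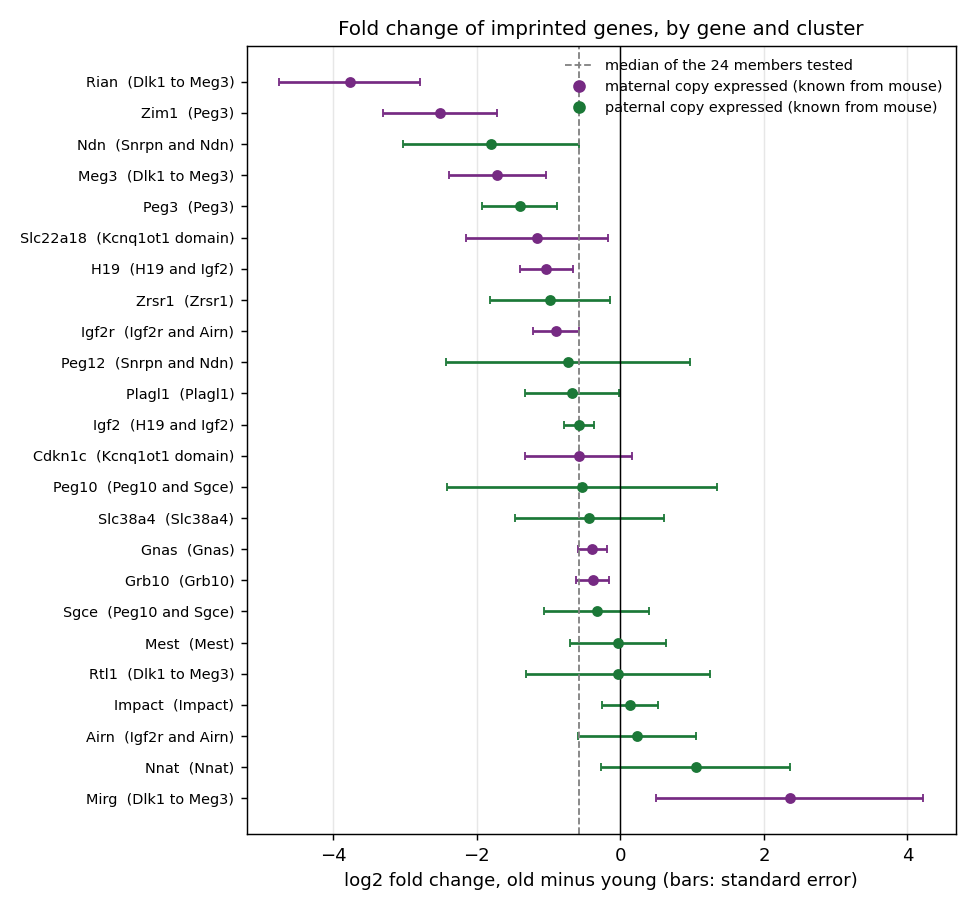
Log2 fold change of old over young for the 24 imprinted genes tested, with its standard error, coloured by the parental copy known to be expressed, and with the cluster in brackets. The dashed line is the median of the 24 (-0.58), and 20 of the 24 points lie left of zero.

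Igf2 and H19 were the most abundant of these transcripts for their exon length, and both were lower in old samples on average. As CPM over all 6 samples, Gnas averaged 898, between Igf2 at 1565 and H19 at 763. Igf2 (ENSMUSG00000048583; chromosome 7, 142650766 to 142666816, minus strand, GRCm38) encodes insulin-like growth factor 2, the paternally expressed fetal growth factor. Igf2 had 952, 1303 and 1501 CPM in old samples and 2136, 1887 and 1611 CPM in young samples. The lowest young sample was just above the highest old sample. The old mean of 1252 ± 278 CPM was 0.667 times the young mean of 1878 ± 262 CPM (SD, n = 3 each), with a log2 fold change of -0.58 (SE 0.21). H19 (ENSMUSG00000000031; chromosome 7, 142575529 to 142578143, minus strand), the maternally expressed noncoding RNA 72.6 kb away that shares enhancers with Igf2, had 468, 409.6 and 623 CPM in old samples. In young samples H19 had 1637, 894 and 545 CPM. Young sample 1 was by far the highest and young sample 3 lay within the old range, so the groups overlapped. The log2 fold change of H19 was -1.03 (SE 0.37), and it was -0.52 without young sample 1. The ratio of Igf2 to H19 was 2.03, 3.18 and 2.41 in old samples and 1.3, 2.11 and 2.95 in young samples, with overlap.

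Per kilobase of exon, H19 averaged 203 CPM per kb in old samples and 417 CPM per kb in young samples, and Igf2 averaged 219 CPM per kb in old samples and 328 CPM per kb in young samples. Their ranges overlapped in each group, so their order is not set. Gnas came next at 69.4 CPM per kb in old and 91.1 CPM per kb in young samples, with all 6 samples below every H19 and Igf2 value. Grb10 followed at 25.4 CPM per kb in old and 33.1 CPM per kb in young samples, below every Gnas value. Peg3, Impact, Mest, Igf2r, Nnat, Cdkn1c and Airn then lay between 6.79 and 21.8 CPM per kb as group means, with ranges that overlapped along the order. Peg3 reached the Grb10 range in young sample 1, and Nnat passed it in old sample 2, at 39.2 CPM per kb. Mest in old sample 3 was at 23.1 CPM per kb, level with Grb10 in old sample 1.

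Igf2r and Grb10, a receptor and an adaptor of the insulin-like growth factor axis, were lower in old samples too. Igf2r (ENSMUSG00000023830; chromosome 17, 12682406 to 12769664, minus strand) encodes the receptor that carries the IGF2 protein to lysosomes for breakdown. Igf2r had 98.0, 80.2 and 60.3 CPM in old samples and 161, 134 and 147 CPM in young samples. The groups were apart, and the old mean of 79.5 ± 18.8 CPM was 0.54 times the young mean of 147 ± 13.6 CPM (SD, n = 3 each; log2 fold change -0.89, SE 0.32). Grb10 (ENSMUSG00000020176; chromosome 11, 11930508 to 12038683, minus strand), an adaptor that binds the insulin and IGF1 receptors and restrains their signal, had 209.5, 232 and 251 CPM in old samples. In young samples Grb10 had 329.9, 275 and 296 CPM. Its groups were narrow and apart, at a log2 fold change of -0.38 (SE 0.23). The Igf2 level over the Igf2r level was 9.71, 16.2 and 24.9 in old samples and 13.3, 14.1 and 11 in young samples, and the old samples spanned the young ones.

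Airn (ENSMUSG00000078247; chromosome 17, 12741311 to 12860136, plus strand) is the paternally expressed noncoding RNA that runs across the start of Igf2r and silences it on that copy. Airn had 47.1, 30.3 and 8.30 CPM in old samples and 41.9, 19.8 and 11.5 CPM in young samples. Old sample 1 lay above all young samples and old sample 3 below them, at a log2 fold change of 0.23 (SE 0.82). The value was -0.34 without old sample 1 and 0.86 without young sample 1. Reads of Airn where it overlaps Igf2r could belong to either gene.

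Of 15 further insulin-like growth factor genes, none of them imprinted members, 14 were tested. Of these 10 had a negative log2 fold change and 4 a positive one, with a median of -0.31, and edgeR called 0. At an unadjusted p under 0.05 it counted 2 as lower and 1 as higher, where 2.7% and 2.86% of all genes were so counted. Igf1, the related growth factor, had 249, 256 and 325 CPM in old samples and 827, 485 and 343 CPM in young samples. Every old sample was below every young one (log2 fold change -1.0, SE 0.33). Igf1r, the receptor that both growth factors activate, had 386, 308 and 382 CPM in old samples and 152, 229 and 230.4 CPM in young samples. Every old sample was above every young one, at a log2 fold change of 0.82 (SE 0.26). Irs1, a docking protein beneath that receptor, had a log2 fold change of -1.10 (SE 0.65) and Igfbp6, which binds IGF2 outside the cell, one of -0.69 (SE 1.02), and both overlapped between ages.

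The noncoding RNAs of the Dlk1 to Meg3 region on chromosome 12 held both the most negative and the most positive fold change among the 24. The region reads Dlk1 and Rtl1 from the paternal copy and Meg3, Rian and Mirg from the maternal copy, all 3 on the plus strand. In mice the 3 are thought to arise from 1 long transcription unit that begins at Meg3. Rian (ENSMUSG00000097451; chromosome 12, 109603940 to 109661716), the host of many small nucleolar RNAs, had 0.449, 5.23 and 3.66 CPM in old samples. In young samples Rian had 30.9, 57.9 and 38.9 CPM. The highest old sample was far below the lowest young sample. The old mean of 3.11 ± 2.44 CPM was 0.0731 times the young mean of 42.6 ± 13.9 CPM (SD, n = 3 each), with a log2 fold change of -3.77 (SE 0.98).

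Meg3 (ENSMUSG00000021268; chromosome 12, 109541001 to 109571726), a long noncoding RNA with growth-restraining activity in cultured cells, had 5.76, 38.0 and 29.4 CPM in old samples. In young samples Meg3 had 68.3, 95.9 and 75.1 CPM. The groups were apart, with old sample 1 the lowest, and the log2 fold change was -1.71 (SE 0.67). Rian begins 32.2 kb after the end of Meg3, and the differences of the 2 were unequal in size. The Meg3 level over the Rian level was 12.8, 7.26 and 8.03 in old samples, against 2.21, 1.66 and 1.93 in young samples. The old and young ratios did not overlap. The ratio in old sample 1 rests on 6 counts of Rian, against 72 and 75 counts in old samples 2 and 3.

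Mirg (ENSMUSG00000097391; chromosome 12, 109729764 to 109749460), the microRNA host 68 kb further on, went the other way on average. Mirg had 0.15, 16.1 and 2.69 CPM in old samples and 3.35, 0.203 and 0.135 CPM in young samples. Old sample 2 was the only high one, the groups overlapped, and the log2 fold change of 2.36 (SE 1.86) was 0.22 without old sample 2. Old sample 1 and young samples 2 and 3 held 2, 4 and 3 counts of Mirg. The paternal genes of the region were barely present. Dlk1, a membrane ligand of fetal tissue, had at most 8 counts in any sample. Rtl1, a retrotransposon-derived gene of the placenta, had 0.145 to 1.22 CPM in old samples and 0.186 to 1.40 CPM in young samples, at a log2 fold change of -0.03 (SE 1.28), which was positive with DESeq2 size factors. On the strand opposite Rtl1, 6 microRNA hairpins lie across its exon, so reads there could be of either strand.

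**Figure D3:**
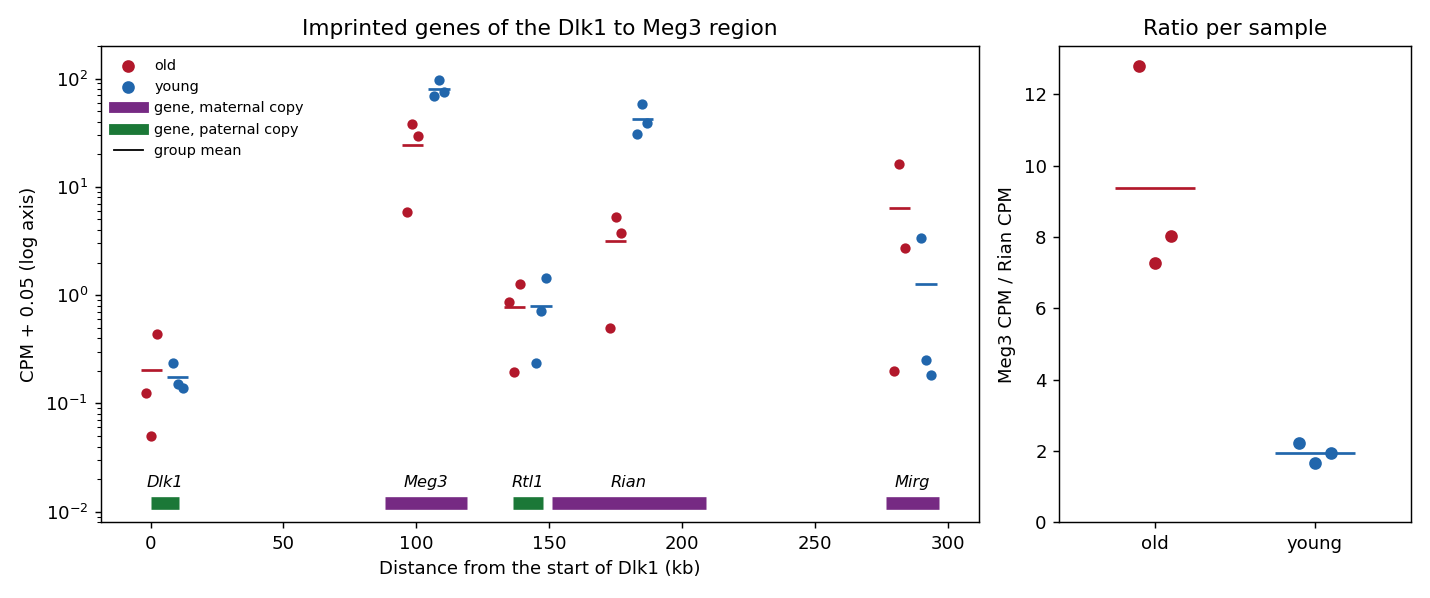
Left, the Dlk1 to Meg3 region of chromosome 12, with distance from the start of Dlk1 in kb along the bottom, genes as bars coloured by the expressed copy, and the level of each gene in each sample above it as CPM plus 0.05 on a log axis. Right, Meg3 CPM over Rian CPM per sample, which is 7.26 to 12.8 in old and 1.66 to 2.21 in young samples. The value of 12.8, in old sample 1, rests on 6 counts of Rian.

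The Peg3 region on chromosome 7 was lower in old samples for both genes measured. Zim1 (ENSMUSG00000002266; chromosome 7, 6671269 to 6696450, minus strand), a maternally expressed zinc-finger gene, had 6.36, 5.96 and 2.59 CPM in old samples and 37.0, 25 and 23.1 CPM in young samples. The groups were far apart. The old mean of 4.97 ± 2.07 CPM was 0.175 times the young mean of 28.4 ± 7.52 CPM (SD, n = 3 each), at a log2 fold change of -2.51 (SE 0.79). Peg3 (ENSMUSG00000002265; chromosome 7, 6703892 to 6730431, minus strand), a paternally expressed zinc-finger transcription factor, starts 147 bp from Usp29, which runs the opposite way. Peg3 had 179, 56.5 and 95.5 CPM in old samples and 482, 232 and 158 CPM in young samples. Old sample 1 was above young sample 3, so the groups overlapped. The log2 fold change was -1.40 (SE 0.52), and it was -0.82 without young sample 1. The Peg3 level over the Zim1 level was 28.1, 9.49 and 36.9 in old samples and 13, 9.27 and 6.82 in young samples, with overlap.

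Gnas, Cdkn1c and Plagl1 were lower in old samples on average, with groups that overlapped. Gnas (ENSMUSG00000027523; chromosome 2, 174284320 to 174346744, plus strand) is a complex locus whose main product, the stimulatory G protein alpha subunit, is read from both copies in most tissues. Gnas had 914, 759 and 656 CPM in old samples and 1101, 1084 and 874 CPM in young samples. Only old sample 1 reached into the young range, and the log2 fold change was -0.39 (SE 0.20). Cdkn1c, the cyclin-dependent kinase inhibitor p57, had 27.8, 14.5 and 14.6 CPM in old samples and 45.1, 29.3 and 10.9 CPM in young samples. Young sample 3 was the lowest of all 6, and the log2 fold change of -0.58 (SE 0.74) was -0.09 without young sample 1. Plagl1, a zinc-finger transcription factor that regulates other imprinted genes, had 10.5, 41.0 and 37.8 CPM in old samples and 38.5, 69.9 and 33.9 CPM in young samples. The groups overlapped, and the log2 fold change of -0.67 (SE 0.65) was -0.27 without old sample 1. Ascl2, a transcription factor of the placenta, had 0 counts in every old sample, which allows up to 0.224, 0.218 and 0.146 CPM in old samples 1, 2 and 3. It had 0 counts in young samples 1 and 2 and 31 counts (1.40 CPM) in young sample 3.

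Slc22a18, a membrane transporter at the Kcnq1ot1 domain, had 7.41, 2.40 and 4.39 CPM in old samples and 13, 9.40 and 9.41 CPM in young samples. The groups were apart at a low level, with a log2 fold change of -1.16 (SE 0.99). Slc38a4, an amino acid transporter, had 2.62, 7.34 and 18.2 CPM in old samples and 6.95, 6.96 and 24.0 CPM in young samples. Sample 3 was the highest of its group at both ages, and the log2 fold change of -0.43 (SE 1.04) was -1.34 without old sample 3 and 0.43 without young sample 3. Mest, a hydrolase-like enzyme of the endoplasmic reticulum, had 42.7, 16.6 and 91.2 CPM in old samples and 81.4, 35.5 and 37.0 CPM in young samples. Old samples spanned the whole young range, and the log2 fold change of -0.03 (SE 0.67) was -0.79 without old sample 3 and 0.48 without young sample 1. Impact, which restrains the amino acid sensor kinase GCN2, had 83, 95.4 and 57.9 CPM in old samples and 91.3, 58.3 and 65.6 CPM in young samples. Its groups overlapped almost fully, at a log2 fold change of 0.13 (SE 0.39) that was -0.03 at the lowest of 12 alternative fits.

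Sgce and Peg10 share a paternally expressed start region, with starts 99 bp apart on opposite strands, but their levels did not move together. Sgce, which encodes the membrane protein epsilon-sarcoglycan, had 34.7, 6.76 and 32.6 CPM in old samples and 24.8, 34.9 and 33.1 CPM in young samples. Old sample 2 alone was low. Peg10, a retrotransposon-derived gene needed for the placenta, had 0.224, 17.7 and 19.3 CPM in old samples and 0.0621, 1.88 and 51.8 CPM in young samples. Peg10 was near zero in sample 1 of both ages, and its log2 fold change of -0.53 (SE 1.88) was 3.65 without young sample 3. The Sgce level over the Peg10 level ran from 0.383 to 155 in old samples and from 0.639 to 400 in young samples. Their neighbour Asb4, a ubiquitin ligase subunit, had at most 1 count in any old sample and 3, 44 and 2 counts in young samples.

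Ndn, Nnat, Peg12 and Zrsr1 varied widely between samples of the same age. Ndn, which encodes the growth-restraining protein necdin, had 1.42, 11.3 and 1.17 CPM in old samples and 6.39, 32.2 and 9.72 CPM in young samples. Sample 2 was the highest at each age, the groups overlapped, and the log2 fold change of -1.80 (SE 1.23) was -3.63 without old sample 2 and -0.82 without young sample 2. Nnat, a small membrane protein of the endoplasmic reticulum whose gene lies in an intron of Blcap, had 2.69, 71.7 and 14.3 CPM in old samples and 0.869, 20.9 and 21 CPM in young samples. Its log2 fold change of 1.05 (SE 1.32) was -0.75 without old sample 2. Peg12, a relative of the Frat genes whose reads may be shared with its copies, had 0.673 to 1.90 CPM in old samples and 0.0621 to 6.09 CPM in young samples. Its log2 fold change of -0.73 (SE 1.70) was 3.90 without young sample 2. Zrsr1, a splicing-factor gene that is a retrocopy inside Commd1, had 3.89, 14.1 and 42.8 CPM in old samples and 37.2, 46.8 and 35.6 CPM in young samples. The young samples were close together while the old samples spread, at a log2 fold change of -0.98 (SE 0.84) that was -2.15 without old sample 3 and -0.49 without old sample 1. Reads shared with its parent gene make its level uncertain.

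How tightly replicates agreed followed the level. The 6 imprinted genes averaging 100 CPM or more (H19, Igf2, Igf2r, Peg3, Grb10 and Gnas) had a median within-group SD of 0.27 in log2 CPM, against 0.40 for the 1891 genes at that level. Grb10 had the smallest, 0.13, and Peg3 the largest, 0.82. The 14 genes between 10 and 100 CPM had a median SD of 1.09, against 0.87 for 7599 genes, from 0.35 for Impact to 3.75 for Peg10. The 4 tested genes under 10 CPM had a median SD of 1.66, against 1.59 for 5904 genes.

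Fibroblast transcripts were lower in old samples along with the imprinted genes, and many imprinted genes are known to be expressed in fibroblasts. Each imprinted level was also set against the summed level of the 17 fibroblast genes in the same sample, a scale chosen after seeing the data. No other cell type list was used as a scale, although several of their sums, given above, also differed between ages. The fibroblast scale moves every gene alike, upwards in old samples, so the counts are given beside those of all genes. On it 7 of the 24 imprinted genes had the lower mean in old samples, against 16.8% of all genes. Every old sample was below every young one for 2 of the 24, Rian and Zim1, against 1.44% of all genes. The opposite order held for 4 of the 24, against 27.5% of all genes. Rian had 0.123, 1.37 and 0.897 CPM in old samples per 1000 CPM of fibroblast genes, and 3.18, 8.02 and 6.03 in young samples. Zim1 had 1.74, 1.56 and 0.634 on this scale in old samples, and 3.81, 3.46 and 3.58 in young samples. Both stayed apart between ages and lower in old samples. Igf2r, Meg3 and Slc22a18, which were apart on CPM, overlapped on this scale, and Peg3 overlapped on both. Igf2, with 261, 341 and 368 in old samples and 219.9, 261 and 249 in young samples, had its lowest old sample level with its highest young sample. The other genes of the opposite order were Grb10, Gnas and Impact, and on CPM none of the 4 had every old sample above every young one.

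The scale itself depends on its genes. Without the type I collagen genes Col1a1 and Col1a2, the largest contributors to each young sum, 11 of the 24 had the lower mean in old samples, against 23.6% of all genes. Rian and Zim1 still had every old sample below every young one, and of Igf2, Grb10, Gnas and Impact, the last alone kept every old sample above every young one. Over all genes these orders held for 2.07% and 19.5%. The part of fibroblast, macrophage, endothelial, mural, meningeal or choroid plexus cell RNA, and of RNA quality, in the differences between ages was not tested.

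**Figure D4:**
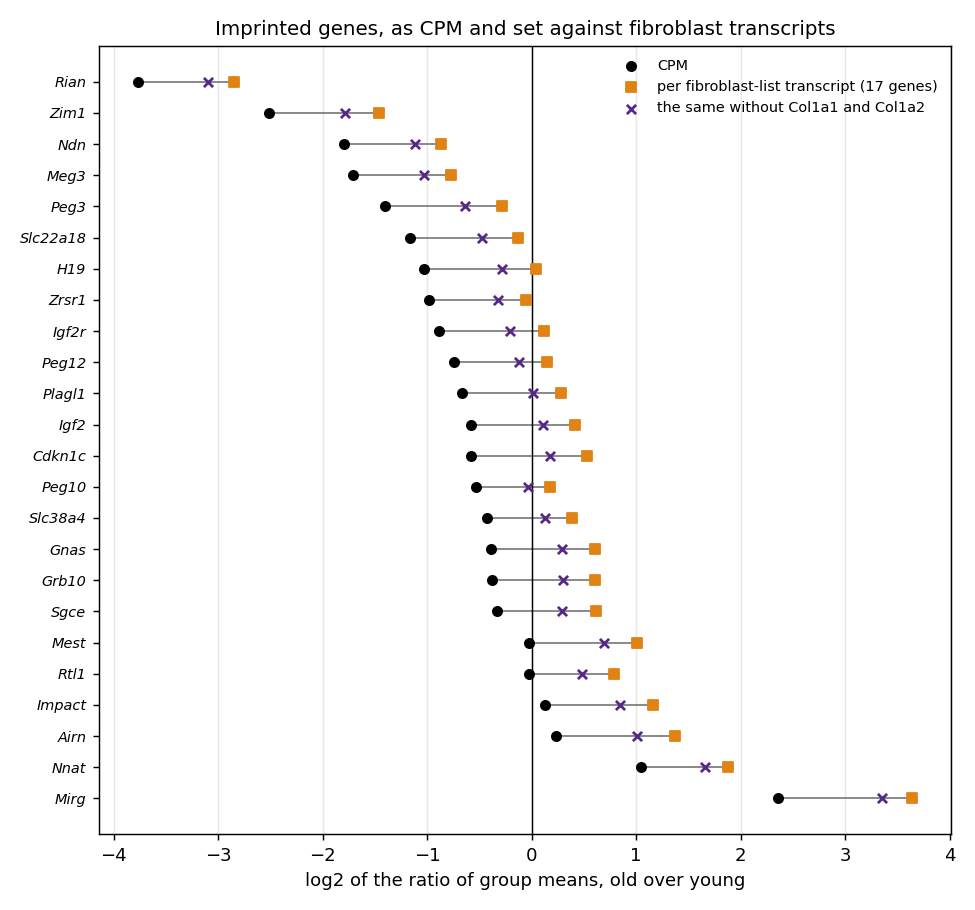
Log2 ratio of the old mean over the young mean for the 24 imprinted genes, as CPM (circles), per fibroblast transcript with 17 genes (squares), and the same without Col1a1 and Col1a2 (crosses). All genes shift to the right against fibroblast genes, and Rian and Zim1 remain the lowest, at -2.85 and -1.46 with all 17 genes.

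Further imprinted genes had a median near that of all genes. Of 48 further mouse genes reported as imprinted, some in certain tissues only, 39 had a row and 32 were tested, and 18 had a negative and 14 a positive log2 fold change, with a median of -0.07. EdgeR called 0 of them. At an unadjusted p under 0.05, 1 was lower and 1 higher, where 2.7% of all genes were lower and 2.86% higher. Ppp1r9a, a neuronal actin-binding gene next to Peg10, had 5.99, 17.6 and 2.39 CPM in old samples and 0.869, 65.7 and 98.7 CPM in young samples. Young sample 1 was the lowest of all, and the log2 fold change was -2.67 (SE 1.36). Trappc9, a vesicle-transport gene, had 94.8, 58.8 and 20.8 CPM in old samples and 29.0, 24.1 and 28.9 CPM in young samples, with overlap, at 1.09 (SE 0.62). Ampd3, an AMP deaminase, had a log2 fold change of -0.94 (SE 0.91) and Cobl, an actin nucleator, one of -0.71 (SE 0.76), both with overlap.

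Genes that place or keep imprints were also measured. Of 27 such regulators, 22 were tested, and 14 had a negative and 8 a positive log2 fold change, with a median of -0.25. EdgeR called 0 of the 22, and 0 were at an unadjusted p under 0.05 in either direction, against 5.56% of all genes. Dnmt3a, the DNA methyltransferase that lays down imprints in germ cells, had 45.1, 77.9 and 93.8 CPM in old samples and 148, 68.5 and 111 CPM in young samples. The groups overlapped, at a log2 fold change of -0.59 (SE 0.43). Tet1 and Tet2, which oxidise methylated DNA, had log2 fold changes of 0.75 (SE 1.06) and -1.35 (SE 1.45). Tet1 was at 210.0 CPM in old sample 1 and 4.14 CPM in old sample 2, and Tet2 was at 0 and 63.9 CPM in the same samples, so neither gene had a level common to the old group. Ehmt1, a histone H3 lysine methyltransferase, had a log2 fold change of -0.75 (SE 0.65), with overlap.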

How the data were processed

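RNA was sequenced from 6 samples of sorted meningeal lymphatic endothelial cells, 3 old and 3 young, grouped by the labels. The authors deposited a table of estimated counts per gene. FastQC, Salmon and the mm10 build are named, per the submitters' processing notes, without versions or roles. Neither the annotation nor the strandedness is stated. The deposited estimated counts were whole numbers already. Salmon divides reads shared by similar transcripts by likelihood. Of 22964 identifiers, 22738 had a symbol in GENCODE M21 (GRCm38).

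Genes were tested in R 4.3.3 with edgeR 4.0.16 (filterByExpr, minimum 10 counts and total 15; TMM; robust two-sided quasi-likelihood test on age; Benjamini-Hochberg at 0.05 over 15394 genes). DESeq2 1.42.0, limma 3.58.1 (voom), other scalings, no filter, a block and leaving out each sample were alternatives. Log2 CPM used a prior count of 2. The fit was checked on simulated counts. Limits for 0 counts are 3 counts per library and cover counting error only. The members, lists and tests were chosen with earlier results of these data known. Members averaging 5 CPM in either group are given per sample. Of other lists, up to 4 genes with the largest fold change at 20 CPM or more are named. Xist and Tsix were left out of the other imprinted genes.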

Additional observations from a re-analysis of the deposited data

How the results depend on the processing

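Over 12 alternative fits, 18 to 22 imprinted genes had a negative log2 fold change and 3 to 6 a positive one. The direction of 15 genes held in all 12 and that of 9 did not (Airn, Rtl1, Mest, Sgce, Peg10, Peg12, Nnat, Slc38a4 and Impact), for 23 of 288 values. DESeq2 called 2 imprinted genes and 130 of all genes, and limma-voom called 3 of all genes. Leaving out 1 sample gave 0 to 1 calls over all genes, with the 1 call made without old sample 1. It gave 2 to 6 imprinted genes at an unadjusted p under 0.05, where 4.24% to 8.28% of all genes were counted. The 2 were found without young sample 1, with 5.42% of all genes. The number with every old sample below every young one was 7 to 11, where that order held for 10.6% to 13.5% of all genes. The 11 were found without young sample 3, with 10.7% of all genes. This alternative was chosen after seeing the data. With the replicate block edgeR called 0 genes and counted 712 (4.63%) at an unadjusted p under 0.05, against 856 (5.56%) without it. Samples with the same number deviated from their groups with correlations of 0.0792, 0.0533 and -0.0119, so little shared deviation was seen over the genes tested. Such values cannot tell whether samples with the same number were handled together, and the labels do not say. The median of all genes was 0.02, and it was -0.12 with library size as the only scaling, -0.11 with limma-voom and -0.10 with the block. The common biological coefficient of variation was 90.1%.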
